A study of Mus musculus with 6 samples.

Results

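Zinc and iron are metals that every cell must take up, store and export in balance. Zinc enters the cytosol through proteins of the Slc39 (ZIP) family and leaves it, across the plasma membrane or into vesicles, through proteins of the Slc30 (ZnT) family. Metallothioneins bind the surplus, and the zinc-sensing transcription factor Mtf1 turns their genes on through short metal response elements. Iron bound to transferrin is taken up through transferrin receptors, crosses membranes through Slc11a2, is stored in ferritin and leaves the cell through ferroportin, the product of Slc40a1. A pair of regulatory proteins, the products of Aco1 and Ireb2, bind hairpins called iron-responsive elements in the messenger RNAs of this system, where they block translation of ferritin and stabilise the transcript of the transferrin receptor gene Tfrc.

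The 38 genes described here were chosen by symbol: all Slc39a and Slc30a genes in the table, together with Mt1, Mt2, Mtf1, Slc40a1, Slc11a1, Slc11a2, Tfrc, Tfr2, Trf, Fth1, Ftl1, Aco1, Ireb2 and Heph, out of 41214 genes in all. Total RNA came from cultured mouse mammary tumor explant cells, derived from the mammary epithelial line NMuMG and expressing Neu-NT, the activated rat version of ErbB2. One population was depleted of CdGAP, the Cdc42 and Rac1 regulator encoded by Arhgap31, by a short hairpin RNA (genotype Neu-NT shCdGAP, 3 libraries), and the other carried a control hairpin (genotype Neu-NT shCON, 3 libraries). All 6 were grown in serum-containing medium with insulin and G418. The cell type label reads shCTL for all 6, and the genotype label separates them. The labels give neither the number of hairpins or clones nor whether replicates were grown separately. A p-value here therefore covers the spread among these libraries alone, which may be technical.

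The libraries held 19176540 to 26824249 reads assigned to genes. Arhgap31, the hairpin's target, stood at 0.149, 0.826 and 0.748 FPKM in shCdGAP, against 1.19, 1.30 and 1.35 FPKM in shCON, a difference of -0.56 on the log2 scale that was not past the threshold (adjusted p = 0.0836, limma). FPKM scales reads to gene length and library depth, and values for a group are given throughout in the order of replicates 1, 2 and 3. The first shCdGAP library was unlike the other two: across tested genes, on the log2(FPKM + 1) scale, its correlation was 0.948 with replicate 2 and 0.938 with replicate 3, while that between replicates 2 and 3 was 0.996. Mitochondrial genes took 2.32 to 3.24% of reads in shCdGAP and 1.58 to 1.69% in shCON, and their part in the results was not tested. The epithelial keratin genes Krt8 and Krt18 were abundant in both groups, and the endothelial markers and the fibroblast markers, 12 genes, were all under 1 FPKM in every library. The endothelial sum was 0 to 0.0295 FPKM in shCdGAP and 0.225 to 0.265 in shCON, and the fibroblast sum was 0.598 to 1.10 FPKM in shCdGAP and 0.808 to 0.947 in shCON. Of 6 epithelial markers, all tested, 2 rose and 1 fell. Cdh1, encoding E-cadherin, averaged 168 ± 16.1 FPKM in shCdGAP and 50.7 ± 11.1 FPKM in shCON (SD, n = 3 each, adjusted p = 0.00220, limma), and the keratin gene Krt7 averaged 0.792 ± 0.269 FPKM in shCdGAP and 0.264 ± 0.0460 FPKM in shCON (adjusted p = 0.0353, limma). Epcam fell, with no reads in shCdGAP and 29 to 32 reads in shCON (adjusted p = 0.00232, limma).

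Sequences are shown for the parts of this system where the metal sensors are known to act. RefSeq promoter windows of build GRCm38.p6, from 250 bases before to 50 bases after a gene's start, were found for 30 of the 38 genes. Slc39a4, Slc40a1, Trf, Slc39a14, Slc11a2, Slc39a6, Heph and Slc30a8 had no window and were not searched for this element. Each window found was searched on both strands for the core letters of the metal response element, TGCACNC or TGCGCNC, which can overlap. The metallothionein genes Mt1 and Mt2, which lie 5514 bases apart on chromosome 8 and both rose, are printed with the matches in capitals, 250 bases up to the RefSeq start of each gene. These starts differ from the GENCODE positions given further below, where Mt1 starts at 94179082 and Mt2 at 94172664.
Mt1 (chr8:94178839-94179088, plus strand): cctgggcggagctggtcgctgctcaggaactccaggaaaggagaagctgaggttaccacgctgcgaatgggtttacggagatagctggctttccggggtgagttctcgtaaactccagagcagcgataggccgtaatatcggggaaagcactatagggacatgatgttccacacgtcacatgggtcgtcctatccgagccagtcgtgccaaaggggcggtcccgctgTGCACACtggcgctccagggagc
Mt2 (chr8:94172368-94172617, plus strand): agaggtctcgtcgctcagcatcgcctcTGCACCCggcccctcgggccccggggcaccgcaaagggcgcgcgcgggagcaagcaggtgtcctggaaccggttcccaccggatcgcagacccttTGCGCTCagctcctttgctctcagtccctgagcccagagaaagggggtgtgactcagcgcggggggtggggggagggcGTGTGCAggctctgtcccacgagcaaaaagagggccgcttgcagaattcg
Just after its RefSeq start, Mt1 holds 2 more matches in this stretch (chr8:94179091-94179115, plus strand): TGCACTCcgcccgaaaagTGCGCTC

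In all, the Mt1 window held 3 matches and the Mt2 window 4. The fourth Mt2 match (chr8:94172622-94172628) lay just after the RefSeq start but before the GENCODE start, and is not in the printed stretch. Windows with at least 3 matches made up 1.97% of all 32851 promoter windows in the table, those with at least 4 made up 0.517%, and 25.7% held at least 1. By gene, at least 1 match was found in a window of 15 of the 30 genes. The 30 genes had 39 windows, some more than 1 each, so this count is not on the scale of the 25.7% of windows. Beside Mt1 and Mt2, Slc30a4 and Slc30a10 had 3 matches, and Slc30a1, Slc30a2 and Tfrc had 2. A match is a run of letters and not a shown binding site.

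The iron-responsive element was searched for in the untranslated regions of GENCODE M21 transcripts (GRCm38) as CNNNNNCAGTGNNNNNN, where the 5 bases on either side of the 6-base loop had to pair. A match was held by 0.128% of 21875 protein-coding genes in the 5′ and by 0.581% in the 3′ untranslated region. The sites of the ferritin genes and Tfrc are shown because iron regulatory proteins bind there, with the loop in capitals. Sites were listed only for members with a promoter window. Slc40a1 and Slc11a2, which have none, were therefore left out whether or not they held a match.
Fth1, 5′ untranslated region (chr19:9982732-9982760, plus strand): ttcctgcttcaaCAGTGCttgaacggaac
Ftl1, 5′ untranslated region (chr7:45459779-45459807, minus strand): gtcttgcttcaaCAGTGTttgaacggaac
Tfrc, 3′ untranslated region (chr16:32631219-32631247, plus strand): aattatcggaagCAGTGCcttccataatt
Tfrc, 3′ untranslated region (chr16:32631598-32631626, plus strand): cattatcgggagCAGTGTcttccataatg
Tfrc, 3′ untranslated region (chr16:32631663-32631691, plus strand): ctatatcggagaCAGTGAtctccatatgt
Tfrc, 3′ untranslated region (chr16:32631710-32631738, plus strand): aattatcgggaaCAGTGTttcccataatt

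Of the 38 genes, 29 had enough reads to be tested, and 10 of these (34.5%) changed in CdGAP-depleted cells: 7 rose and 3 fell (limma on log2(FPKM + 1), adjusted p under 0.05 over 13483 genes). The 7 that rose were the zinc importers Slc39a4 and Slc39a10, the metallothioneins Mt1 and Mt2, and the iron genes Slc40a1, Tfr2 and Trf. The 3 that fell were Slc39a13, Slc39a14 and Slc30a4. Over all tested genes, 21% were called, 9.92% as higher and 11.1% as lower. By role, 2 of 10 tested zinc importers rose and 2 fell, 0 of 6 tested exporters rose and 1 fell, both metallothioneins rose, and 3 of 10 tested iron genes rose and 0 fell. The median log2 fold change was 0.14 over the 29 members and -0.010 over all tested genes. Group ranges were apart for 16 of the 29 members, against 44.1% of all tested genes. In bulk RNA, fewer cells of a type and less RNA per cell cannot be told apart.

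**Figure D1:**
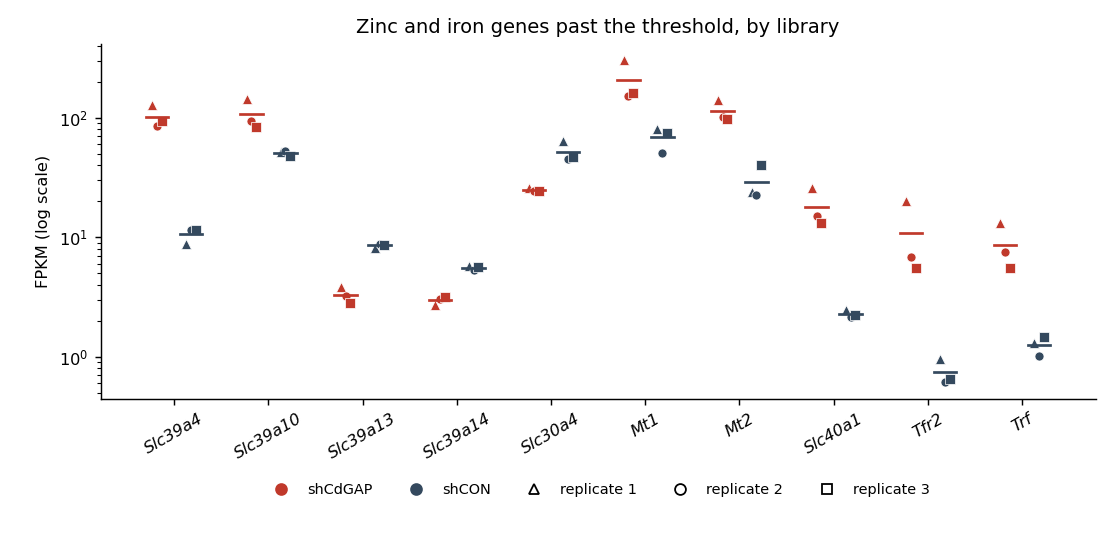
FPKM (log axis) of the 10 members past the threshold in each library; points are libraries, shapes mark the replicate number, and bars are group means. Slc39a4 lies between 85.7 and 127 FPKM in shCdGAP and between 8.80 and 11.5 in shCON, and no gene shown has overlapping groups.

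These counts moved with single libraries. Without shCdGAP replicate 1, 15 members were called (11 higher, 4 lower), against 39.9% of all tested genes. Without shCON replicate 2, 7 were called (4 higher, 3 lower), against 9.17% of all tested genes. The 7 members called in that fit were all among the 10.

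Slc39a4 had the largest fold change of the 29 on the log2(FPKM + 1) scale, whereas Tfr2 had the larger ratio of means (14.6, against 9.66 for Slc39a4) and the larger value with a pseudocount of 0.1 FPKM, with limma-voom and in the authors' deposited table. Slc39a4 encodes ZIP4, a plasma membrane zinc importer known for intestinal zinc uptake and mutated in the human zinc deficiency acrodermatitis enteropathica. Slc39a4 (ENSMUSG00000063354, chromosome 15, 76612383 to 76617384 of GRCm38, minus strand) stood at 127, 85.7 and 93.3 FPKM in shCdGAP (6451, 4186 and 5156 reads), against 8.80, 11.5 and 11.4 FPKM in shCON (378, 704 and 676 reads). Every shCdGAP library was several times above every shCON library. The means were 102 ± 21.9 FPKM in shCdGAP and 10.6 ± 1.52 FPKM in shCON (SD, n = 3 each), a ratio of 9.66. Its log2 fold change was 3.14 (adjusted p = 2.52e-04 by limma, 95% interval 2.70 to 3.59, SE 0.18), and it was 2.98 to 3.26 without any single library.

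Slc39a10 encodes ZIP10, another plasma membrane zinc importer, and was the most abundant Slc39 gene in shCON. It stood at 143, 93.1 and 83.6 FPKM in shCdGAP, against 51.3, 52.6 and 47.7 FPKM in shCON, with no overlap. This was a log2 fold change of 1.02 (adjusted p = 0.0197 by limma, SE 0.21). Leaving out shCdGAP replicate 2 ended the call (adjusted p = 0.0539), as did leaving out shCON replicate 1, 2 or 3 (0.0713, 0.0745 and 0.0825).

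Both importers that fell were among the less abundant tested members. Slc39a13 encodes ZIP13, which releases zinc from the Golgi and other vesicles. It stood at 3.84, 3.21 and 2.83 FPKM in shCdGAP, against 8.18, 8.80 and 8.58 FPKM in shCON, which gave a difference of -1.16 on the log2 scale (adjusted p = 0.00168 by limma, SE 0.12). All shCdGAP libraries were below all shCON libraries. The exons of Slc39a13 overlap those of Psmc3, a proteasome gene on the opposite strand, at 45.8 to 78.5 FPKM in shCdGAP and 74.96 to 89.7 in shCON (log2 fold change -0.41, adjusted p = 0.234, limma). How strand was handled is not given in the sources used here, and reads of the pair cannot be told apart. The median tested gene of chromosome 2, which holds Slc39a13 and Slc30a4, was 0.14 below that of all tested genes on the log2 scale, and its part was not tested.

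Slc39a14 encodes ZIP14, which carries zinc, manganese and iron that is not bound to transferrin. It stood at 2.71, 3.02 and 3.17 FPKM in shCdGAP, against 5.70, 5.35 and 5.60 FPKM in shCON. The groups were tight and did not overlap. The fit gave a log2 fold change of -0.73 (adjusted p = 0.00450 by limma, SE 0.097).

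The 6 other tested Slc39 genes were called in neither direction. These were Slc39a1, Slc39a3, Slc39a6, Slc39a7, Slc39a9 and Slc39a11, with log2 fold changes between -0.40 (Slc39a6) and 0.18 (Slc39a9). Slc39a1, a plasma membrane importer, was the most abundant of them, at 37.6, 34.7 and 36.0 FPKM in shCdGAP, against 41.9, 40.9 and 39.9 FPKM in shCON (log2 fold change -0.18, 95% interval -0.39 to 0.032, adjusted p = 0.205, limma). Its groups were apart by a small margin. Slc39a6 and Slc39a11 also lay lower in all shCdGAP libraries than in all shCON libraries without passing the test (adjusted p = 0.263 and 0.114, limma).

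**Figure D2:**
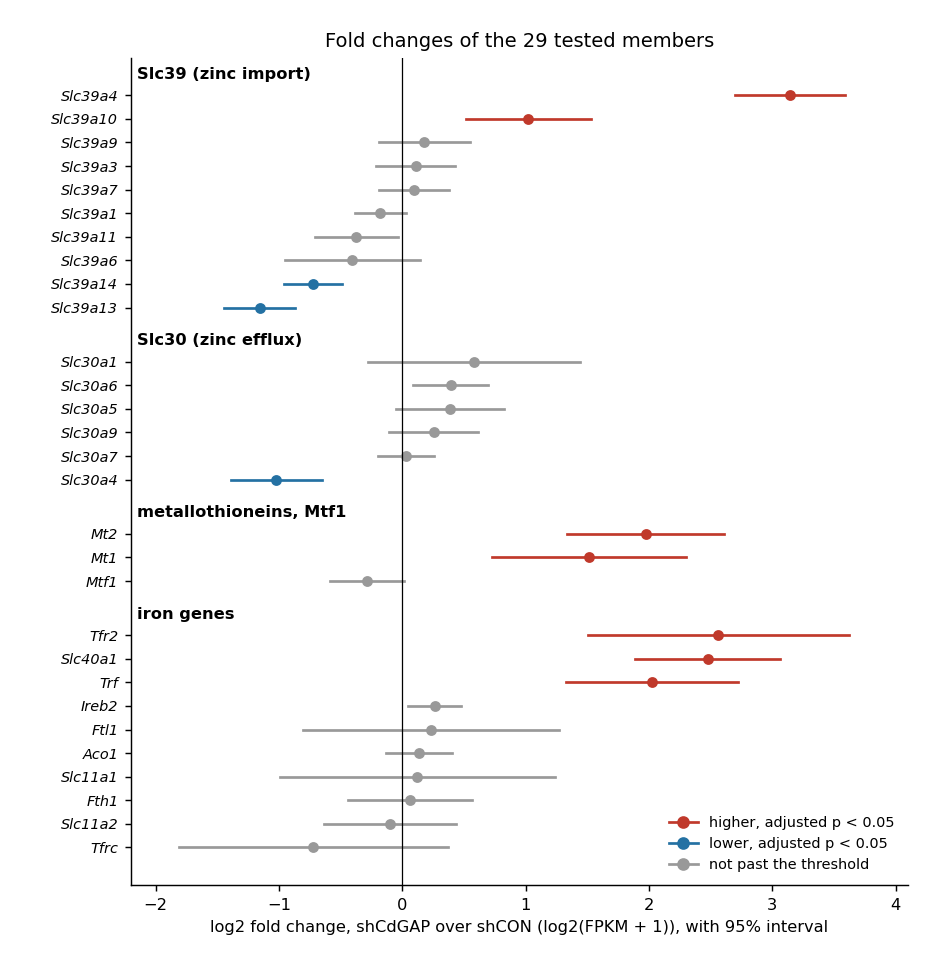
Log2 fold change of shCdGAP over shCON for the 29 tested members, ordered by role and by size, with 95% intervals from limma; red is higher, blue lower and grey not past the threshold. Slc39a4 at 3.14 is the highest value and Slc39a13 at -1.16 the lowest, and Tfrc, Ftl1 and Slc11a1 have the widest intervals among the grey points.

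The summed level of the 14 Slc39 genes was 301 ± 49.9 FPKM in shCdGAP and 169 ± 3.92 FPKM in shCON (SD, n = 3 each). Slc39a4 supplied 31.7 to 35.4% of that sum in the shCdGAP libraries and 5.28 to 6.78% in the shCON libraries. Without Slc39a4, the sum was 181 to 232 FPKM in shCdGAP and 156 to 162 FPKM in shCON, so the groups remained apart by a smaller margin. The share of Slc39a10 was 30.5 to 39.9% in shCdGAP and 28.5 to 30.8% in shCON, and these ranges overlapped. The share of Slc39a1 was 10.5 to 13.1% in shCdGAP and 23.5 to 25.2% in shCON. A share falls when another member rises, so it does not show a change of that gene.

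**Figure D3:**
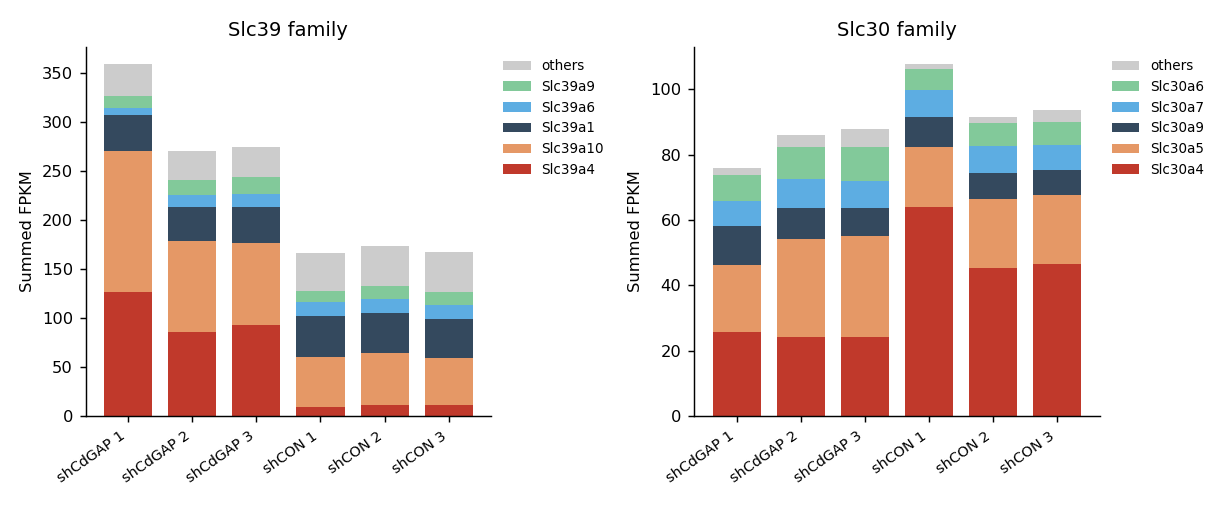
Summed FPKM of the Slc39 family (left) and the Slc30 family (right) in each library, stacked by gene with the less abundant genes as others. The Slc39 sum lies between 271 and 359 FPKM in shCdGAP and between 167 and 174 in shCON, whereas the Slc30 sum lies between 76.0 and 87.9 in shCdGAP and between 91.6 and 108 in shCON.

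Among the zinc exporters, Slc30a4 changed and 5 other tested members did not pass. Slc30a4 encodes ZnT4, which loads zinc into secretory vesicles and is the gene behind the mouse lethal milk mutation, in which milk lacks zinc. Slc30a4 (ENSMUSG00000005802, chromosome 2, 122681233 to 122702663 of GRCm38, minus strand) stood at 25.8, 24.2 and 24.3 FPKM in shCdGAP, against 64.1, 45.4 and 46.4 FPKM in shCON. All shCdGAP libraries were alike, and the spread lay in shCON, where replicate 1 was highest. Its log2 fold change was -1.02 (adjusted p = 0.00671 by limma, SE 0.15). Its exons overlap 4930417H01Rik on the opposite strand, which averaged 0.0622 FPKM in shCdGAP and 0.104 in shCON. Slc30a4 supplied 27.6 to 34.0% of the summed Slc30 level in shCdGAP and 49.6 to 59.5% in shCON.

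The other exporters tested had log2 fold changes above 0, between 0.029 for Slc30a7 and 0.58 for Slc30a1. Slc30a5 and Slc30a6, whose products work as a pair in the Golgi, stood at 27.1 ± 5.90 and 9.37 ± 1.26 FPKM in shCdGAP and at 20.2 ± 1.74 and 6.87 ± 0.474 FPKM in shCON (SD, n = 3 each), and missed the threshold (adjusted p = 0.193 and 0.0749, limma). Both were called higher without shCdGAP replicate 1. Slc30a1 encodes ZnT1, the plasma membrane zinc exporter, and is a known target of Mtf1. It stood at 2.03, 3.75 and 5.47 FPKM in shCdGAP, against 1.31, 1.71 and 3.41 FPKM in shCON. The groups overlapped, although within each replicate number the shCdGAP library was higher. This was a log2 fold change of 0.58 (95% interval -0.28 to 1.44, adjusted p = 0.301, limma). Under the replicate block the adjusted p was 0.0490, and without shCdGAP replicate 1 the gene passed as well, at a log2 fold change of 0.87.

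The metallothioneins rose together. Mt2 (ENSMUSG00000031762, chromosome 8, 94172664 to 94173568 of GRCm38, plus strand) stood at 141, 101 and 96.9 FPKM in shCdGAP, against 23.7, 22.3 and 39.9 FPKM in shCON. The ratio of means was 3.95 and the log2 fold change 1.97 (adjusted p = 0.00450 by limma, SE 0.26). Mt1 (ENSMUSG00000031765, chromosome 8, 94179082 to 94180327, plus strand) was the more abundant, at 304, 150 and 159 FPKM in shCdGAP, against 80.5, 50.2 and 74.96 FPKM in shCON. No shCdGAP library of either gene overlapped with shCON, and replicate 1 was the highest shCdGAP library of both.

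The log2 fold change of Mt1 was 1.51 (adjusted p = 0.0226 by limma, SE 0.32). It was 1.19 to 1.70 without any single library, but leaving out shCON replicate 1, 2 or 3 ended the call (adjusted p = 0.0596, 0.0836 and 0.0713). The ratio of Mt1 to Mt2 in FPKM was 1.48 to 2.15 in shCdGAP libraries and 1.88 to 3.39 in shCON libraries, which overlap. Exons of Mt2 overlap Gm45774 on the opposite strand. Mt1 and Mt2 are alike in sequence, so reads may be split between them. The median tested gene of chromosome 8 was itself 0.19 higher than the median of all tested genes, on the log2 scale. The part of this shift in the rise was not tested.

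Mtf1, the zinc sensor that drives the metallothionein genes, did not pass. It stood at 2.27, 2.98 and 3.16 FPKM in shCdGAP, against 3.48, 3.62 and 3.75 FPKM in shCON (log2 fold change -0.29, 95% interval -0.59 to 0.013, adjusted p = 0.159, limma). Each shCdGAP library was below each shCON library. Exons of Mtf1 overlap those of 1110065P20Rik on the opposite strand, at a mean of 8.96 FPKM in shCdGAP and 9.26 in shCON, so reads in the shared stretch are uncertain.

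Of the iron genes, Slc40a1, Tfr2 and Trf rose. Slc40a1 encodes ferroportin, the iron exporter of mammalian cells. Slc40a1 (ENSMUSG00000025993, chromosome 1, 45908068 to 45926523 of GRCm38, minus strand) stood at 25.6, 14.9 and 13.2 FPKM in shCdGAP (5277, 2940 and 2962 reads), against 2.48, 2.13 and 2.22 FPKM in shCON (431, 527 and 534 reads). The lowest shCdGAP library was several times above the highest shCON library. The means were 17.9 ± 6.73 FPKM in shCdGAP and 2.28 ± 0.182 FPKM in shCON (SD, n = 3 each), a ratio of 7.88. The fit gave a log2 fold change of 2.48 (adjusted p = 0.00153 by limma, 95% interval 1.88 to 3.07, SE 0.24), and 2.20 without shCdGAP replicate 1.

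Tfr2 encodes transferrin receptor 2, an iron sensor known from liver and erythroid cells. It stood at 19.9, 6.85 and 5.53 FPKM in shCdGAP, against 0.955, 0.609 and 0.651 FPKM in shCON. Replicate 1 was the highest shCdGAP library, and every shCdGAP library lay far above shCON. The ratio of means was 14.6, the highest among the members that rose, and the log2 fold change, which the added 1 FPKM shrinks at such low levels, was 2.56 (adjusted p = 0.0107 by limma, SE 0.43). It was 2.05 without shCdGAP replicate 1, and the call was lost without shCON replicate 2 (adjusted p = 0.0517).

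Trf encodes transferrin itself, the iron carrier of blood, made mainly by liver. It stood at 13.04, 7.51 and 5.47 FPKM in shCdGAP, against 1.29, 1.02 and 1.46 FPKM in shCON. The groups did not overlap. The ratio of means was 6.89 and the log2 fold change 2.03 (adjusted p = 0.00565 by limma, SE 0.29), or 1.72 without shCdGAP replicate 1.

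Markers of hepatocytes, listed after the values were seen, are given because liver is the known site of several of these genes. Of 12 such markers 8 were tested, of which 3 were higher and 0 lower (Alb, Ttr and Fgb), or 37.5% against 21% of all tested genes. Apob, encoding the main protein of liver lipoproteins, stood at 15.4, 7.82 and 8.83 FPKM in shCdGAP, against 17.02, 23.6 and 22.2 FPKM in shCON. Its groups did not overlap, and the difference of -0.95 on the log2 scale just missed the threshold (adjusted p = 0.0502, limma). The authors' deposited table called Apob lower (adjusted p = 0.0125, DESeq2). Of the 11 markers with an adjusted p in that table, 6 were called higher and 1, Apob, lower, against 23.8% of its genes called in either direction. The summed level of the 12 markers was 69.9 to 130 FPKM in shCdGAP and 75.01 to 87.5 in shCON. Most of this sum was Hnf4a, a transcription factor of hepatocytes and other epithelia, at 85.3, 53.8 and 54.0 FPKM in shCdGAP, against 56.1, 60.5 and 62.7 FPKM in shCON. The defining marker Alb stood at 6.61, 7.49 and 3.05 FPKM in shCdGAP, against 0.329, 0.463 and 0.274 FPKM in shCON, and Ahsg had no reads in any library. Their part in the rise of Trf, Tfr2 and the other liver-known genes described here was not tested.

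Tfrc, the receptor through which most cells take up transferrin, did not pass. It stood at 23.4, 60.4 and 69.7 FPKM in shCdGAP, against 53.7, 96.2 and 88.3 FPKM in shCON. The groups overlapped, replicate 1 was the lowest library of each group, and within each replicate number the shCdGAP library was lower. Its log2 fold change was -0.72 (95% interval -1.82 to 0.37, adjusted p = 0.313, limma). Without both libraries numbered 1 it was -0.50 and passed (adjusted p = 0.00544), and 48.3% of all tested genes were called in that fit. The median tested gene of chromosome 16, which holds Tfrc, was 0.24 below that of all tested genes on the log2 scale, and its part was not tested. The ratio of Tfrc to Tfr2 in FPKM was 1.18 to 12.6 in shCdGAP libraries and 56.2 to 158 in shCON libraries.

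The ferritin genes were by far the most abundant members and did not pass. Fth1, the heavy chain, which oxidises iron, stood at 3313, 2222 and 2457 FPKM in shCdGAP, against 3138, 2223 and 2280 FPKM in shCON. Its log2 fold change was 0.062 (95% interval -0.44 to 0.57, adjusted p = 0.867, limma). Ftl1, the light chain, stood at 3126, 1169 and 1179 FPKM in shCdGAP, against 1857, 1149 and 1239 FPKM in shCON (log2 fold change 0.24, 95% interval -0.80 to 1.27, adjusted p = 0.740, limma). In both genes the libraries numbered 1 were the highest of their group, and the direction of the difference turned with the libraries used: without shCdGAP replicate 1 the log2 fold change was -0.11 for Fth1 and -0.24 for Ftl1. Ferritin genes have close copies in the mouse genome that can share their reads, and the hairpins shown above act on translation, which RNA reads do not measure.

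**Figure D4:**
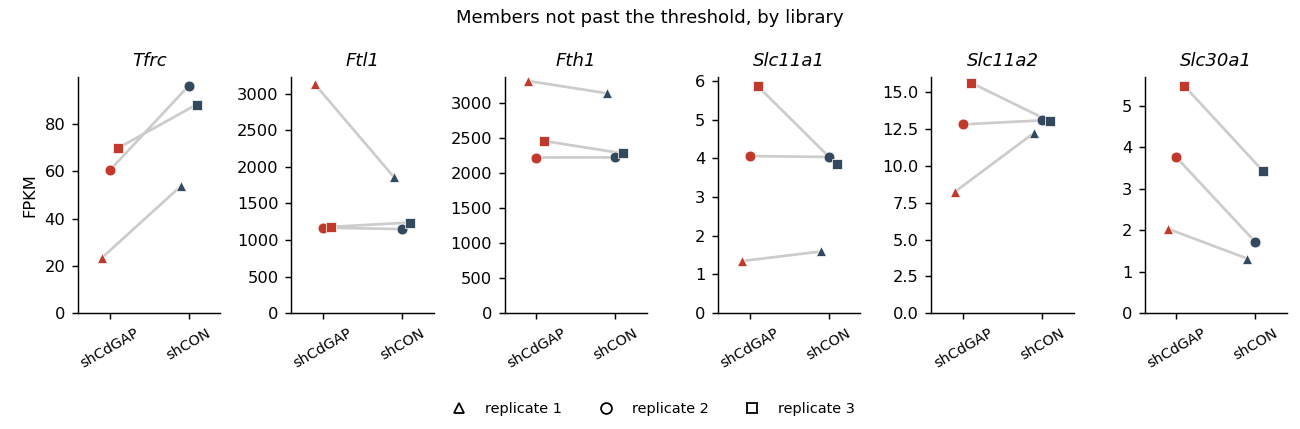
FPKM of 6 members not past the threshold, with lines joining libraries of the same replicate number and shapes marking that number. Replicate 1 is the lowest library of both groups for Tfrc (23.4 FPKM in shCdGAP, 53.7 in shCON) and the highest of both for Ftl1 (3126 in shCdGAP, 1857 in shCON).

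The libraries numbered 1 were set apart in many, but not all, of the tested members. Their deviation from the mean of replicates 2 and 3, on the log2 scale, had the same sign in both groups for 20 of 29 members. Tfrc, Fth1 and Ftl1, described above, are among the 20. The signs were opposite for the others, which include the changed genes Slc39a4, Slc39a13, Slc39a14 and Mt2. The share of same signs over all tested genes was not computed. The deviation was larger in shCdGAP, with a median size of 0.50, than in shCON, with a median size of 0.15. The deviation exceeded 1 in shCdGAP for 4 members, namely Tfr2 (1.54) and Ftl1 (1.41) above, and Tfrc (-1.44) and Slc11a1 (-1.33) below.

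Slc11a2, which carries iron out of endosomes, stood at 8.26, 12.8 and 15.7 FPKM in shCdGAP, against 12.3, 13.1 and 13.04 FPKM in shCON (log2 fold change -0.10, 95% interval -0.63 to 0.43, adjusted p = 0.786, limma). The shCdGAP libraries lay on either side of shCON. Slc11a1, a metal transporter known from phagosomes of macrophages, stood at 1.35, 4.06 and 5.87 FPKM in shCdGAP, against 1.59, 4.03 and 3.84 FPKM in shCON, and did not pass either (adjusted p = 0.882, limma). Of 10 macrophage and leukocyte markers, 8 were under 1 FPKM in every library, and the defining markers Adgre1 and Tyrobp had no reads. Their summed level was 3.48 to 10.3 FPKM in shCdGAP and 13.5 to 18.0 in shCON, most of it Cd68, which fell (adjusted p = 0.0465, limma), while Itgam rose (adjusted p = 0.0160, limma). Their part in these values was not tested.

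The iron regulatory protein genes Ireb2 and Aco1 were not called. Ireb2, encoding iron regulatory protein 2, stood at 34.98, 33.1 and 33.8 FPKM in shCdGAP, against 29.9, 27.2 and 27.5 FPKM in shCON. All shCdGAP libraries were above all shCON libraries, by a small margin. This was a log2 fold change of 0.26 (95% interval 0.046 to 0.48) and missed the threshold (adjusted p = 0.0898, limma), whereas the authors' deposited table called it higher (log2 fold change 0.27, adjusted p = 0.0466, DESeq2). It was also called without shCdGAP replicate 1 (adjusted p = 0.0466). Aco1, encoding iron regulatory protein 1, stood at 32.1, 26.98 and 25.7 FPKM in shCdGAP, against 26.0, 25.7 and 24.9 FPKM in shCON, with overlapping groups (log2 fold change 0.14, adjusted p = 0.441, limma).

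The 9 members that were not tested had at most 12 reads in any library. They were Slc39a2, Slc39a5, Slc39a8, Slc39a12, Slc30a2, Slc30a3, Slc30a8, Slc30a10 and Heph, the last a ferroxidase partner of ferroportin known from intestine. Slc30a8, the zinc transporter of insulin granules, had 0 reads in all 6 libraries, which allows up to 3 reads per library. Slc39a12 had 0, 0 and 2 reads in shCdGAP, against 8, 9 and 7 reads in shCON, and was called lower in the authors' deposited table (adjusted p = 0.0114, DESeq2). That table called 12 of the 32 members for which it gives an adjusted p, against 23.8% of its genes, and all 10 members named above as changed were among them.

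Of 28 genes in the table for iron transport, reduction and regulation, 17 were tested, and 3 rose and 0 fell. That is 17.6% of those tested, against 21% of all tested genes, and the median log2 fold change was 0.060. Cp, encoding ceruloplasmin, the copper ferroxidase that works with ferroportin, stood at 125, 70.8 and 61.1 FPKM in shCdGAP, against 5.89, 12.4 and 11.9 FPKM in shCON. Its groups were far apart (log2 fold change 2.96, SE 0.36, adjusted p = 0.00345, limma). The metalloreductase gene Steap2 rose as well (27.5 ± 3.39 FPKM in shCdGAP and 12.6 ± 0.772 in shCON, SD, n = 3 each, adjusted p = 0.00229, limma). Fbxl5, whose product senses iron and marks iron regulatory proteins for breakdown, rose by 0.51 on the log2 scale (adjusted p = 0.0357, limma). That call was lost without any single library other than shCdGAP replicate 1 (adjusted p = 0.0616 to 0.141), with library size scaling (0.0503) and with no filter (0.0567).

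Of 26 genes of haem and iron-sulfur metabolism, all tested, 3 rose and 0 fell. That is 11.5%, against 21% of all tested genes, and the median log2 fold change was 0.097. Hp, encoding haptoglobin, which binds free haemoglobin, stood at 3.03, 7.77 and 6.62 FPKM in shCdGAP, against 0.193, 0.406 and 0.278 FPKM in shCON (adjusted p = 0.00388, limma). Hpx, encoding the haem binder hemopexin, stood at 43.7 ± 8.42 FPKM in shCdGAP and 15.8 ± 3.68 FPKM in shCON (SD, n = 3 each, adjusted p = 0.00812, limma). Both encode plasma proteins made mainly by liver. Of the enzymes of haem synthesis, Alas1, Alad, Uros, Urod, Cpox, Ppox and Fech did not pass.

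Of 17 genes for copper and other metals, 15 were tested, and 2 rose and 3 fell. That is 33.3% of those tested, against 21% of all tested genes, and the median log2 fold change was -0.056. Atp7b, a copper pump that loads ceruloplasmin in liver, stood at 2.04, 1.90 and 1.90 FPKM in shCdGAP, against 0.183, 0.196 and 0.132 FPKM in shCON (log2 fold change 1.33, adjusted p = 1.62e-04, limma). Atp2c1, a Golgi pump for calcium and manganese, rose by 0.52 on the log2 scale (adjusted p = 0.00975, limma), and lost its call without shCON replicate 2 or 3 (adjusted p = 0.0671 and 0.0599).

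The magnesium transporter genes Slc41a2 and Slc41a1 fell. Slc41a2 stood at 0.277 ± 0.0255 FPKM in shCdGAP and 3.21 ± 0.371 FPKM in shCON (SD, n = 3 each, log2 fold change -1.72, adjusted p = 2.28e-04, limma), and Slc41a1 by a smaller margin (log2 fold change -0.57, adjusted p = 0.0123). The call on Slc41a1 was lost without shCdGAP replicate 2 or shCON replicate 2 or 3 (adjusted p = 0.0595, 0.0620 and 0.050022). Tmem163, a zinc transporter of vesicles, was at 0, 0.0212 and 0 FPKM in shCdGAP, against 1.75, 1.14 and 1.04 FPKM in shCON (adjusted p = 0.00177, limma). The other metallothionein genes of the list, Mt3 and Mt4, were at or near 0 reads and were not tested.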

How the data were processed

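Groups and replicate numbers come from the labels. For the authors' steps, the submitters' processing notes list, without roles, Trimmomatic, TopHat2 2.0.13, featureCounts and DESeq2, with build mm10. The sources used here give neither annotation release nor strand handling. The authors deposited 1 table of FPKM per library and, per the file headers, their DESeq2 comparison of shCdGAP over shCtl: a mean signal, a log2 fold change, a test score and a p-value. The deposited FPKM had been divided by size factors. Multiplying it by mean signal over mean FPKM and by a fitted factor per library gave whole reads for 100% of values (tolerance 1e-06).

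A gene was tested where 3 or more libraries had 10 or more depth-scaled reads and the total was 15 or more. The test was limma 3.58.1 in R 4.3.3 on log2(FPKM + 1), with group as the single term, trended and robust empirical Bayes, 2-sided, with Benjamini-Hochberg adjustment over all 13483 genes. This scale understates changes of low genes. The step was run on simulated reads with the same spread for all genes and no outlying library. That run does not cover a library such as shCdGAP replicate 1. Positions are from GENCODE M21, in which all 38 members were found, and exon overlaps were looked up there. Tables used Python 3.11.15, pandas 2.3.3 and matplotlib 3.10.9. Members, lists and the rule for named genes (every member past the threshold, 12 fixed members, and up to 4 changed genes of each list) were chosen with earlier results of these data known. Slc41a1, the epithelial markers and the hepatocyte markers fall outside the rule and were named after their values were seen. Some genes of the lists are not reported here.

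Libraries of the same number deviated together from their group means (correlation across genes 0.43, 0.39 and 0.34). The numbers are used as a pairing in the replicate block and where libraries of the same number are compared, although no label states one. Unless the block is named beside a value, it comes from the unpaired fit. Replicates 2 and 3 were not separated (0.35 and 0.27 across numbers). Alternatives were other scalings, filters and tests, the replicate block and left-out libraries.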

Additional observations from a re-analysis of the deposited data

How the results depend on the processing

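All 10 members called were also called, in the same direction, under library size and TMM scaling, with no filter, among genes of at least 5 CPM, with a pseudocount of 0.1 FPKM, with limma-voom, with a plain empirical Bayes step, with the replicate block and in the authors' deposited comparison. The replicate block gave 11 calls (8 higher, 3 lower), in a fit that called 18.2% of all tested genes. It added Slc30a1 (log2 fold change 0.58) and changed the call of no other member. Without any single library, 4 to 11 members were higher and 3 or 4 lower, in fits that called 9.17 to 39.9% of all tested genes. Without both libraries numbered 1, where 48.3% of all tested genes were called against 21% with all libraries, 11 were higher and 6 lower, and Ftl1 and Slc11a2 turned direction without passing (log2 fold changes -0.023 and 0.11). Leaving out single libraries moved Fth1 between -0.11 and 0.22, Ftl1 between -0.24 and 0.47, and Slc11a2 between -0.29 and 0.14. Of 17 tested genes of iron transport 3 changed, but 6 with a pseudocount of 0.1 FPKM and 5 with limma-voom. Each of these 2 fits called 21.8% of all tested genes. The authors' deposited comparison called 7 of 22 genes of iron transport with an adjusted p, against 23.8% of its genes. Without both libraries numbered 1 the changed genes of iron transport numbered 14, and without any single library 2 to 12. Those of haem and iron-sulfur metabolism (26 tested) numbered 12 without both libraries numbered 1 and 2 to 11 without any single library. Those for copper and other metals (15 tested) numbered 10 and 3 to 9. The highest counts without a single library, 12, 11 and 9 in the order of these lists, came without shCdGAP replicate 1. That fit called 39.9% of all tested genes. The cause was not tested.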

Other observations

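Some iron genes outside the rule for named genes, chosen after their values were seen, varied widely among the libraries of a group. Lcn2, encoding lipocalin 2, which binds iron carriers of bacteria, stood at 0.475, 14.8 and 39.5 FPKM in shCdGAP, against 0.157, 0.458 and 0.406 FPKM in shCON. Replicate 1 of shCdGAP was close to the control level, and the gene did not pass (adjusted p = 0.137, limma), although the groups did not overlap and the authors' deposited table called it higher (adjusted p = 0.00298). Tmprss6, a protease that lowers hepcidin, was highest in that library, at 8.14, 1.73 and 1.26 FPKM in shCdGAP, against 0.357, 0.342 and 0.410 FPKM in shCON (adjusted p = 0.0964, limma). Its groups did not overlap either, and it was called higher in the authors' deposited table (adjusted p = 1.66e-05). Hepcidin itself, Hamp, was at 0 FPKM in 5 of 6 libraries.

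Hmox1, encoding the haem-degrading enzyme haem oxygenase 1, was highest in the libraries numbered 1 of both groups, as Ftl1 was. It stood at 80.5, 22.0 and 29.2 FPKM in shCdGAP, against 65.5, 20.2 and 21.4 FPKM in shCON (adjusted p = 0.790, limma).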
